A study of Mus musculus with 6 samples.

Results

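The growth hormone and IGF axis is described here by 10 genes of the 47256 gene names listed once in every mouse. They were chosen by name, with earlier results of these data known. They comprise the receptors Ghr and Prlr, the hormone Igf1, its carrier Igfals and the binding proteins Igfbp1, Igfbp2 and Igfbp4. The others are the feedback inhibitor Socs2 and the transcription factors Bcl6 and Cux2. All 10 had a zFPKM above -3 in all 6 mice and so entered every test.

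Growth hormone from the pituitary binds its receptor on hepatocytes, which activates the kinase JAK2 and the transcription factor STAT5, and STAT5 turns on Igf1, Igfals and Socs2. Liver supplies most circulating IGF1, which travels in a complex with IGFBP3 and the acid labile subunit encoded by Igfals, while other IGF binding proteins carry or sequester it. In rodents growth hormone is secreted in pulses in males and more evenly in females, and liver answers with sex-biased expression, in which BCL6 is a male-biased repressor and CUX2 is a female-specific factor.

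Livers of 3 laboratory mice and 3 wild mice were profiled by RNA-Seq of polyadenylated RNA. The laboratory mice were adult C57BL/6 males from 1 supplier, killed on arrival. The wild mice, 1 male (wild mouse 1) and 2 females (wild mice 2 and 3), were trapped as adults at different sites, wild mice 1 and 2 at one of them, and were held in captivity before they were killed. Origin, sex and housing cannot be told apart between the groups, and any comparison with the wild male rests on 1 mouse.

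Values are FPKM (fragments by transcript length, scaled to the mapped fragments of the library), which allow levels of different genes to be compared per length, and zFPKM. The zFPKM places each gene's log2 FPKM within its own mouse's distribution, in units of that distribution's SD. This SD lay between 2.51 (laboratory mouse 3) and 3.12 (wild mouse 2) in log2 FPKM, so differences in zFPKM are not log2 folds. Relative to laboratory mouse 2, library depth ranged between 0.922 (laboratory mouse 3) and 1.36 (wild mouse 2), and the absolute depth is unknown. The first principal component of all tested genes (43.8% of the variance) parted wild from laboratory mice, and the second (32.5%) set laboratory mouse 3 and wild mouse 1 apart from the other 4. Over the 18619 genes tested, the median difference between wild and laboratory mice was 0.47 in log2(FPKM + 0.1) and -0.0050 in zFPKM, so a rise in FPKM is read against that shift. In zFPKM 1355 genes were called higher and 1335 lower in wild mice, against 7065 and 1524 in log2(FPKM + 0.1). Hepatocyte markers were abundant in every liver, their summed FPKM (7 of 10 markers used) being 56448 to 72259 in the C57BL/6 livers and 32856 to 40000 in wild mice, and no marker of any of the 7 cell types listed was at 0 in every mouse. In whole liver, fewer cells of a type and less RNA per cell cannot be told apart.

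The 250 bases before each RefSeq start site were searched on both strands for TTCNNNGAA, the letters that STAT5 binds (N is any base), and for CAAAACA or CAAAATA, letters of the insulin response element that FOXO factors bind. RefSeq windows on GRCm38.p6 were found for 9 of the 10 genes, all but Socs2. The first motif was in 7.02% of 32851 mouse windows and the second in 9.14%. The following stretches are shown because each holds matches in a gene whose level is described below, with the matches in capitals.
Igfbp1, chr11:7197647-7197746, plus strand, upstream of the gene, with CAAAACA and, on the other strand, CAAAATA: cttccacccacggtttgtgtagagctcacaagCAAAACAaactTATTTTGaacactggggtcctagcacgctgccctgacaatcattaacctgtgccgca
Igfals, chr17:24878121-24878210, plus strand, before its second start site and within an intron of longer transcripts, with TTCNNNGAA: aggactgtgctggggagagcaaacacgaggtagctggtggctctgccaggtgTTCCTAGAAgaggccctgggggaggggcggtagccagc
Prlr, chr15:10223746-10223835, plus strand, before its second start site and intronic to longer transcripts, with TTCNNNGAA: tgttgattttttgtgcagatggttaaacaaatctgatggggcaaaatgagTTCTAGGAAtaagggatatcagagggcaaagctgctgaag
Bcl6, chr16:23981344-23981463, minus strand, before its second start site and intronic to longer transcripts, with TTCNNNGAA at 3 places: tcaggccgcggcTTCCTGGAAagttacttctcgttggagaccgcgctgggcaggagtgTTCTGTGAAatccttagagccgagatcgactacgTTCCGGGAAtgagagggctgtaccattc
The Igfbp1 matches began 108 and 97 bases before the start, the Igfals match 58 bases, the Prlr match 110 bases, and the Bcl6 matches 168, 122 and 88 bases. A further TTCNNNGAA lay 236 bases before the first Igfals start and 118 bases before the first Bcl6 start, and a CAAAATA lay 171 bases before the first Prlr start. Neither motif was found in the windows of Igf1, Igfbp2, Igfbp4, Ghr or Cux2, which says only that these letters are not in those windows.

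Wild livers held less Igf1 and Socs2 and more Prlr and Igfbp1 than laboratory livers, with no overlap between the groups in FPKM. Igf1 was 2.44 times lower, Socs2 2.77 times lower, Prlr 8.81 times higher and Igfbp1 6.78 times higher in mean FPKM. In the limma fit of zFPKM across all 18619 genes, 6 of the 10 genes were called at a Benjamini-Hochberg adjusted p under 0.05: Prlr, Igfbp1 and Cux2 higher, and Igf1, Socs2 and Bcl6 lower. In this fit each gene's error came from a trend over all genes of the same level and not from its own spread, so a gene whose groups overlap can be called. Among all genes tested 14.4% were called (7.28% higher and 7.17% lower). Because the 10 genes were chosen with earlier results of these data known, their count is a description and was not tested against this share. In FPKM, 4 of the 10 were higher (Ghr, Prlr, Igfbp1 and Igfbp4) and 2 lower (Igf1 and Socs2) with no overlap between groups, where 55.8% of all genes tested did not overlap (43.7% higher and 12.1% lower). In zFPKM the groups did not overlap for Prlr (higher) and for Igf1, Socs2 and Bcl6 (lower), against 28.3% of all genes (14.1% higher and 14.2% lower). The median difference of the 10 genes was 0.02 in zFPKM.

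**Figure D1:**
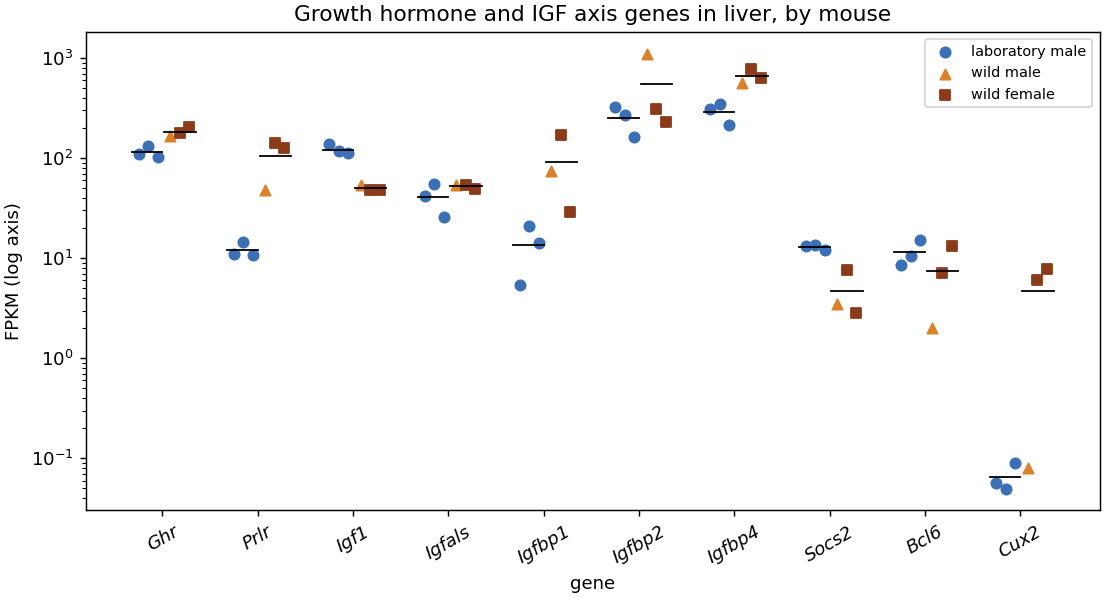
FPKM of the 10 genes (log axis) in each liver, with laboratory males as circles, the wild male as a triangle, wild females as squares and a line at each group's mean of 3 mice. Igf1 and Socs2 lie lower and Prlr and Igfbp1 higher in all 3 wild mice, Igfbp2 is highest in the wild male, and Cux2 is near 0 in all 4 males.

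Of the receptors, Ghr (chr15:3317755-3583352) encodes the growth hormone receptor. Its FPKM was 109, 133 and 104 in laboratory mice 1 to 3 and 167, 179 and 204 in wild mice 1 to 3. All 3 wild values lay above the laboratory ones, 1.59 times higher on average (183 ± 19.2 against 115 ± 15.6, mean ± SD, n = 3 each). Relative to each mouse's distribution the wild mice were not called different, the zFPKM difference being -0.02 (95% interval -0.25 to 0.21, adjusted p = 0.936). On log2(FPKM + 1), without that centring, it was 0.66 (adjusted p = 0.0104), and over all alternatives the adjusted p ran from 0.0101 to 0.993.

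Prlr (chr15:10177238-10349190), the receptor for prolactin, which also activates STAT5, had the highest ratio between groups of the genes well detected in all 6 mice. Laboratory males had 10.9, 14.5 and 10.7 FPKM, the wild male 48.5, and the wild females 143 and 127. The wild male thus lay above every laboratory male and below both females. The zFPKM difference between wild and laboratory mice was 0.79 ± 0.15 (SE, adjusted p = 3.15e-06), and leaving out any 1 mouse kept it called. With sex in the fit, which makes the value that of the 1 wild male against the laboratory males, the difference was 0.32 (adjusted p = 0.362), and over all alternatives the adjusted p was 4.82e-06 to 0.450. Prlr shares exon sequence with the annotated gene Gm21973 on the same strand, so its reads could be split between them.

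Igf1 (chr10:87858265-87937047), the growth factor itself, had 138, 117 and 111 FPKM in the C57BL/6 livers and 54.0, 48.0 and 47.9 in wild mice. The wild male and both females were close together, and each had less than the lowest laboratory male. Means were 122 ± 13.9 and 50.0 ± 3.46 (SD, n = 3 each). The zFPKM difference was -0.70 ± 0.13 (SE, adjusted p = 1.90e-06, and 6.44e-08 to 0.208 over the alternatives), called without any 1 mouse. By level, Igf1 came after Igfbp4 and Igfbp2 in mean FPKM of laboratory mice, and in wild mice also after Ghr, Prlr, Igfbp1 and Igfals. Its neighbours in those orders, Ghr in the C57BL/6 livers and Igfals in wild mice, were within the spread between mice. The order of the wild means did not hold in every mouse. Igf1 was above Prlr in wild mouse 1 (54.0 against 48.5 FPKM) and above Igfbp1 in wild mouse 3 (47.9 against 29.0 FPKM).

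Igfals (chr17:24877844-24882011), the acid labile subunit, had 41.7, 55.2 and 25.8 FPKM in the C57BL/6 livers and 53.8, 54.1 and 49.0 in wild mice. The groups overlapped, and the zFPKM difference was -0.09 (95% interval -0.36 to 0.18, adjusted p = 0.745). Within each wild liver Igfals and Igf1 were near equal, with ratios of 0.997, 1.13 and 1.02, whereas laboratory mice had ratios of 0.303, 0.473 and 0.231.

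Among the binding proteins, Igfbp1 (chr11:7197787-7202546), an insulin-repressed and fasting-induced inhibitor of IGF action, was also spread widely within each group. It had 5.44, 20.9 and 14.3 FPKM in the C57BL/6 livers and 74.1, 172 and 29.0 in wild mice. Every wild mouse exceeded every laboratory mouse in FPKM, with wild mouse 3 nearest to them, but in zFPKM the groups overlapped. The zFPKM difference was 0.64 ± 0.15 (SE, adjusted p = 0.000418, and 0.000201 to 0.450 over the alternatives). The call was lost without laboratory mouse 3 (adjusted p = 0.102), wild mouse 1 (0.0674) or wild mouse 2 (0.218, difference 0.39).

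Igfbp2 (chr1:72824480-72852474), a binding protein raised in fasting and in low growth hormone action, set the wild male apart. It had 323, 268 and 164 FPKM in the C57BL/6 livers and 1100 in the wild male. The wild females had 307 and 230, which lay within the laboratory range. The zFPKM difference between wild and laboratory mice was 0.05 (95% interval -0.15 to 0.26, adjusted p = 0.812), and it was -0.17 without the wild male and -0.07 without laboratory mouse 3.

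Igfbp4 (chr11:99040005-99052655), another IGF inhibitor, was the most abundant of the 10 genes by mean FPKM in both groups, above Igfbp2 by less than the spread between mice. Its FPKM was 313, 345 and 215 in the C57BL/6 livers and 565, 775 and 632 in wild mice. All wild values were higher, by 2.26 times on average, yet the zFPKM difference was 0.16 (95% interval -0.04 to 0.36, adjusted p = 0.340). It was called higher on log2(FPKM + 1), log2(FPKM + 0.1) and after quantile normalization (adjusted p = 0.00557, 0.00414 and 0.0158, against 0.868 at most over the alternatives).

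Summed over the 7 genes Igfbp1 to Igfbp7, binding protein transcripts came to 738, 743 and 484 FPKM in the C57BL/6 livers and 1784, 1366 and 962.5 FPKM in wild mice. In laboratory livers Igfbp2 and Igfbp4 held like shares, 34.0% to 43.8% and 42.4% to 46.5%. The wild male had 61.6% Igfbp2 and 31.6% Igfbp4, while the wild females had 22.5% and 23.9% Igfbp2 and 56.7% and 65.6% Igfbp4. The share of Igfbp7, which binds IGFs only weakly, was 11.2% to 15.4% in the C57BL/6 livers and 2.06% to 6.25% in wild mice, without overlap. The shares of Igfbp1 (higher in wild mice) and Igfbp3 (lower) did not overlap either. As the sum was higher in wild mice, a lower share need not be a lower level. Wild mouse 2 had 85.3 FPKM of Igfbp7, within the 74.2 to 88.6 of the C57BL/6 livers. Igfbp3, which carries IGF1 in the complex with Igfals, held at most 2.41% in any liver.

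**Figure D2:**
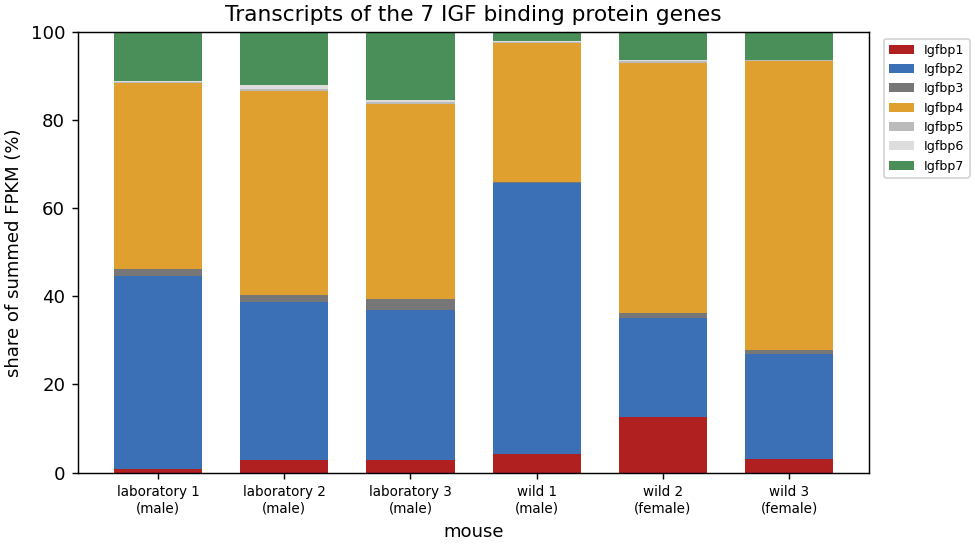
Share (%) of each of the 7 IGF binding protein genes in their summed FPKM, 1 bar for each mouse. Igfbp2 takes 61.6% in the wild male, and Igfbp4 takes 56.7% and 65.6% in the wild females.

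Socs2 (chr10:95383903-95417321), a STAT5 target whose protein dampens growth hormone receptor signalling, was narrow in laboratory mice at 13.3, 13.4 and 12.1 FPKM. Wild mice had 3.47, 7.67 and 2.85 FPKM, all below the laboratory range. The zFPKM difference was -0.81 ± 0.20 (SE, adjusted p = 0.000822, and 0.000328 to 0.450 over the alternatives), and without wild mouse 1 it was -0.65 (adjusted p = 0.0578).

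Bcl6 (chr16:23965050-23988866), a repressor that competes for STAT5 sites, had 8.60, 10.6 and 15.1 FPKM in the C57BL/6 livers and 2.03, 7.09 and 13.3 in wild mice. The wild male was lowest, and wild mouse 3 lay within the laboratory range. In zFPKM the groups did not overlap, with a difference of -0.60 ± 0.19 (SE, adjusted p = 0.0188, and 0.00317 to 0.450 over the alternatives). Without the wild male it was -0.22 (adjusted p = 0.395), without laboratory mouse 1, 2 or 3 the call was lost as well (adjusted p = 0.119, 0.135 and 0.148), and on log2(FPKM + 1) the adjusted p was 0.293. Bcl6 shares exon sequence with Gm37419 on the opposite strand.

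Cux2 (chr5:121857962-122050415), an activator of female-biased liver genes, was near the limit of detection in the 4 males, at 0.0562, 0.0499 and 0.0903 FPKM in the C57BL/6 livers and 0.0808 in the wild male. Cufflinks' lower bound was 0 in laboratory mice 2 and 3 and in the wild male, and no bound was used for laboratory mouse 1. The wild females had 6.10 and 7.79 FPKM. The wild minus laboratory difference of 1.31 ± 0.43 in zFPKM (SE, adjusted p = 0.0195, and 0.00115 to 0.558 over the alternatives) came from the 2 females: it turned to -0.48 (adjusted p = 0.558) for the wild male against laboratory males. Without either female the call was lost (adjusted p = 0.370 without wild mouse 2 and 0.437 without wild mouse 3), as it was without laboratory mouse 2 (0.0656) or laboratory mouse 3 (0.301).

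The comparison of the wild females with the wild male rests on 1 male, so sex cannot be told apart from that mouse. The male also lay apart from the females on the second principal component. Cux2 was the 1 gene of the 10 that was called, with a zFPKM difference of 2.70 ± 0.47 (SE, adjusted p = 0.0254, and 9.44e-05 to 0.866 over the alternatives), where 0.376% of all genes were called (0.317% higher and 0.0591% lower). Bcl6 was 5.05 times higher in mean FPKM in the females, with a zFPKM difference of 1.14 ± 0.22 (adjusted p = 0.0511, and 0.00593 to 0.866 over the alternatives). Igfbp2 was 4.10 times higher in the male (difference -0.66, adjusted p = 0.153), and Prlr 2.78 times higher in the females (0.69, adjusted p = 0.243). For Igf1 the difference was 0.14 (95% interval -0.21 to 0.49), and for Socs2 0.48 (-0.14 to 1.10). Over the 10 genes the median difference was 0.19, against 0.38 over all genes. With only 1 female kept, no gene of the 10 and none of the 18619 was called by limma, and 875 or 975 genes had an unadjusted p under 0.05 (3 of the 10 genes without wild mouse 2 and 2 of them without wild mouse 3).

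The comparison of the wild male with the 3 laboratory males held sex constant, and it gives the same values as the fit of wild against laboratory mice with sex as a covariate. Igf1, Socs2 and Bcl6 were called lower and none of the 10 was called higher, where 7.38% of all genes were called (1.34% higher and 6.04% lower). In FPKM Igf1 was 2.26 times, Socs2 3.73 times and Bcl6 5.64 times lower in the wild male. The median zFPKM difference was -0.18 over the 10 genes and -0.27 over all genes, so a fall in zFPKM is read against that shift. With equal medians of zFPKM the Igf1 difference was -0.51 and lost its call, while Socs2 and Bcl6 kept theirs. The zFPKM differences were -0.79 ± 0.15 for Igf1 (adjusted p = 0.00930, and 0.000369 to 0.250 over the alternatives), -1.13 ± 0.27 for Socs2 (0.0250, and 0.00123 to 0.632) and -1.36 ± 0.21 for Bcl6 (0.00317, and 3.96e-05 to 0.186). Igfbp1 was 5.48 times, Igfbp2 4.37 times and Prlr 4.03 times higher in the wild male in FPKM. In zFPKM their differences were 0.55, 0.49 and 0.32 and were not called. Over the alternatives these differences stayed above 0 (0.45 to 2.64, 0.37 to 2.18 and 0.17 to 2.02, with the scale of the alternative). Igfbp2 and Prlr were called on both log2 scales, with equal medians of zFPKM and after quantile normalization. Cux2 in the wild male lay within the laboratory range of FPKM. Without wild mouse 2 or 3, which leaves 2 residual degrees of freedom, no gene was called by limma, 3 of the 10 having an unadjusted p under 0.05 in both cases. All calls here rest on wild mouse 1, which stood apart on the second principal component together with laboratory mouse 3.

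**Figure D3:**
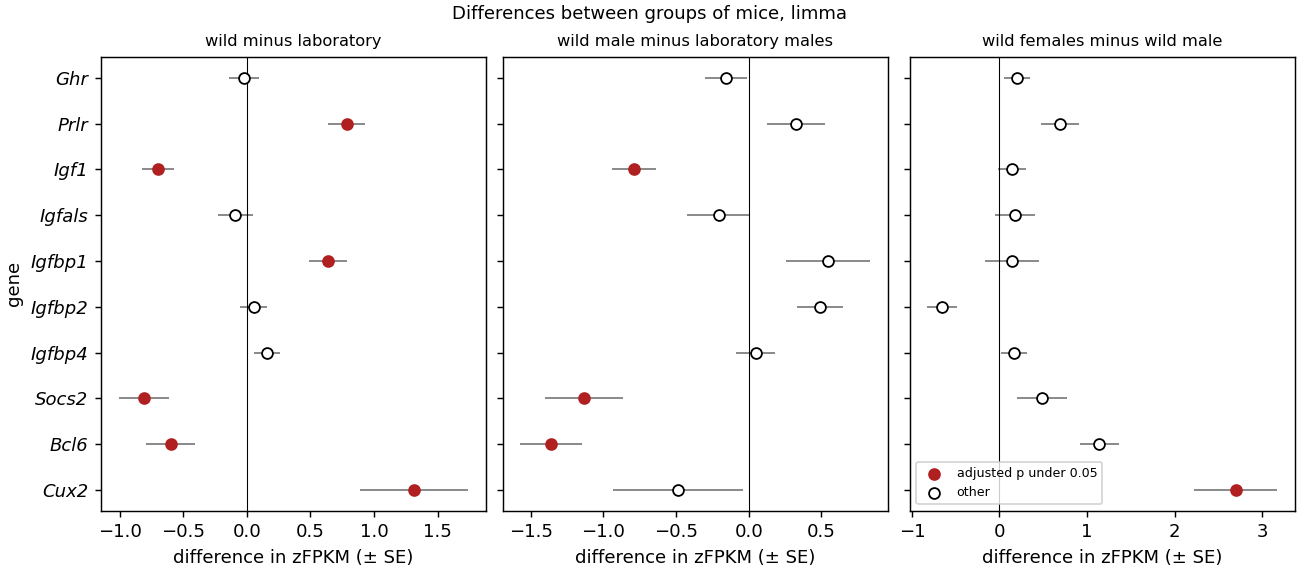
Difference in zFPKM (± SE, limma) of each gene for wild minus laboratory mice, the wild male minus laboratory males and wild females minus the wild male, each panel with its own scale and filled points for an adjusted p under 0.05. Igf1, Socs2 and Bcl6 are filled below 0 in both comparisons with laboratory mice, and Cux2 is filled above 0 in the comparison of wild females with the wild male.

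Ratios of 2 genes within a liver do not depend on the scaling between mice. The 8 pairs were chosen after the values were seen, so they are given without a test. Igf1 per Ghr was 1.26, 0.876 and 1.07 in the C57BL/6 livers and 0.323, 0.269 and 0.235 in wild mice, 3.88 times lower. Socs2 per Ghr was 0.121, 0.101 and 0.116 against 0.0208, 0.0429 and 0.0140. Prlr per Ghr was 0.0998, 0.109 and 0.103 in the C57BL/6 livers, against 0.291 for the wild male and 0.801 and 0.620 for the females. These 3 ratios did not overlap between groups, whereas Igfals per Ghr did (0.248 to 0.414 in laboratory and 0.240 to 0.322 in wild mice). Against Igf1, Igfbp4 went from 1.93 to 2.96 in laboratory mice to 10.5, 16.1 and 13.2 in wild mice, and Igfbp2 from 1.47 to 2.35 to 20.4, 6.39 and 4.80. Igfbp1 per Igf1 was 0.0395 to 0.179 in the C57BL/6 livers and 0.604 to 3.59 in wild mice.

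**Figure D4:**
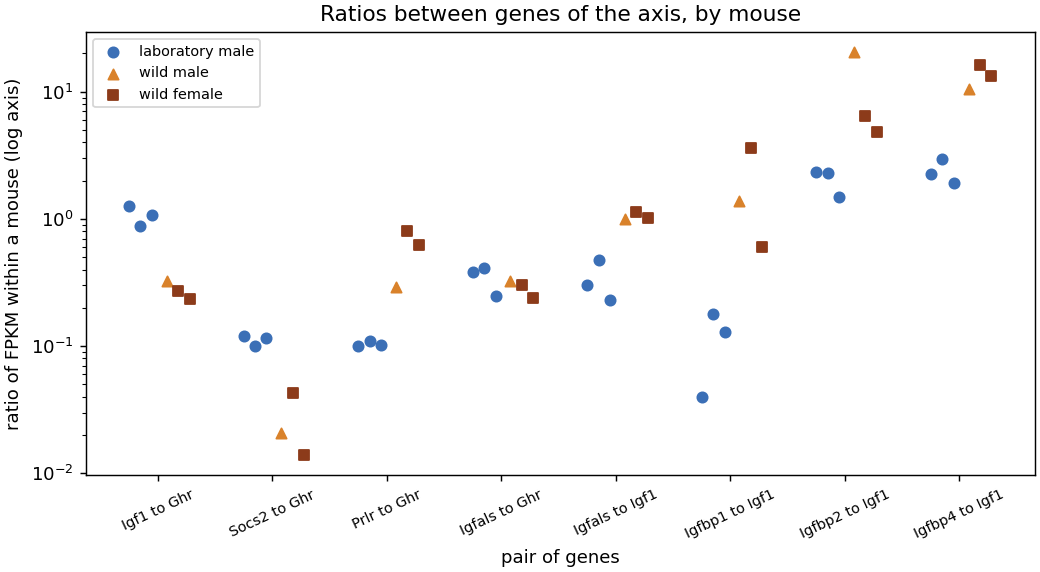
Ratio of FPKM (log axis) between 8 pairs of genes in each liver, with laboratory males as circles, the wild male as a triangle and wild females as squares. Igf1 to Ghr and Socs2 to Ghr lie lower in all 3 wild mice, Igfals to Ghr overlaps, and the 3 binding proteins to Igf1 lie higher.

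Of 15 other genes of growth hormone and prolactin signal transduction, 2 were called higher and none lower in wild mice, a share near the 14.4% of all genes, with a median zFPKM difference of 0.19. Stat3, activated by interleukin-6 in liver, had 5.93, 6.46 and 7.23 FPKM in the C57BL/6 livers and 24.4, 36.9 and 30.6 in wild mice (zFPKM difference 0.51, adjusted p = 0.0242). Every wild mouse had more Stat3 than every laboratory mouse. Stat5b, the main STAT of growth hormone signalling in liver, had 5.34, 6.74 and 6.84 FPKM against 11.7, 16.8 and 18.1, with a zFPKM difference of 0.19 (adjusted p = 0.569). Sirpa, which encodes a membrane glycoprotein bound by phosphatases, was called lower in the wild male than in laboratory males (-1.55, adjusted p = 0.00996) and higher in the wild females than in the wild male (1.69, adjusted p = 0.0448). The 7 Kupffer cell markers moved with it. Their median difference was -1.06 for the wild male against laboratory males and 1.58 for wild females against the wild male. Medians over all genes were -0.27 and 0.38, and those of 8 endothelial markers were -0.91 and 0.89. The summed FPKM of the Kupffer cell markers was 12.4 in the wild male, below the 35.2 to 43.6 of the laboratory livers. Wild mouse 2 had 48.4 and wild mouse 3 had 124, and the part of these cells in the result was not tested.

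None of the 7 other SOCS and CIS inhibitor genes was called by limma in any of the 3 comparisons (1 of 7 had an unadjusted p under 0.05 between wild and laboratory mice, and 2 in each of the others). Cish, like Socs2 a direct STAT5 target, had 1.92, 1.48 and 3.13 FPKM in the C57BL/6 livers and 0.952, 3.33 and 1.30 in wild mice, which overlap (difference -0.39, adjusted p = 0.408). Of the 9 tested among 13 other IGF ligand, binding protein, receptor and protease genes, 1 was called lower and none higher in wild mice. Among all genes 14.4% were called between wild and laboratory mice (7.28% higher and 7.17% lower). For lists this small, the count of neither list stood far from that share. The called gene was Igfbp7, with 82.3, 88.6 and 74.2 FPKM against 36.7, 85.3 and 60.2 (difference -0.44, adjusted p = 0.00860). Igfbp3, mostly made by non-parenchymal liver cells, had 11.3, 10.8 and 11.7 FPKM in the C57BL/6 livers and 2.68, 16.8 and 9.21 in wild mice (difference -0.47, adjusted p = 0.0724). Both were called lower in the wild male than in laboratory males, by -1.21 for Igfbp3 (adjusted p = 0.00955) and -0.79 for Igfbp7 (adjusted p = 0.0123). The summed FPKM of the Kupffer cell markers was also lowest in the wild male, as was that of 8 endothelial markers (18.1, against 23.8 to 38.1 in the C57BL/6 livers, with 64.1 for wild mouse 2 and 35.6 for wild mouse 3), and the part of these cells in the result was not tested. None of these markers was at 0 in every mouse.

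Of 16 liver transcription regulators tied to the growth hormone programme, 2 were called higher in wild mice and none lower, a share near the 14.4% of all genes. Rxra, the retinoid X receptor and partner of many nuclear receptors, had 13.7, 18.4 and 16.5 FPKM against 73.1, 76.5 and 88.8 (difference 0.55, adjusted p = 0.00228). Trim24, a coregulator, had 0.864, 1.90 and 2.61 against 4.14, 12.9 and 16.9 (0.62, adjusted p = 0.0476). Onecut1, a growth hormone-regulated hepatocyte factor, had 0.842, 0.872 and 0.599 FPKM against 1.86, 1.83 and 2.22, a zFPKM difference of 0.25 (adjusted p = 0.688). Of 13 FOXO and fasting genes, which are regulated with Igfbp1, 1 was called higher and none lower, the share called higher being near the 7.28% of all genes. The gene was Tat, a glucocorticoid-induced enzyme of tyrosine breakdown, with at most 148 FPKM in any laboratory liver against 558, 975 and 521 (0.70, adjusted p = 7.09e-09). Among those 13, Pck1 of gluconeogenesis was called higher in wild females than in the wild male (0.66, adjusted p = 0.0471), and in the wild male against laboratory males Tat was called higher (0.58, adjusted p = 0.0363) and the fasting hormone Fgf21 lower (-1.65, adjusted p = 0.0125). The pituitary and hypothalamic genes Gh, Prl, Ghrh, Sst and Ghrhr did not pass the filter, and the highest value among them was 0.144 FPKM of Gh in laboratory mouse 1.

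Downstream of the axis, growth hormone-dependent sex-biased liver genes were counted for these comparisons; they were known beforehand to differ in these data and are a description. Of 14 female-biased genes, 13 were called higher in wild than in laboratory mice, 9 in wild females than in the wild male, and 12 in the wild male than in laboratory males, with none lower. Of 11 male-biased genes, 8 were called lower and 1 higher in wild mice, 5 lower in wild females than in the wild male, and 2 lower in the wild male than in laboratory males. Cyp2b9, a cytochrome P450, was listed at 0 in all 3 laboratory mice and had 29.7, 341 and 319 FPKM in wild mice 1 to 3. A1bg, Cyp2b13, Sult2a1 and Sult3a1 were also at 0 in those laboratory mice. Cyp2b9 and these genes passed the filter only through the wild mice, and their laboratory zFPKM was set to -3. Their differences, and the counts they enter, depend on that floor. In the wild male A1bg, Cyp2b13, Sult2a1 and Sult3a1 had only 0.459, 0.303, 0.254 and 0.438 FPKM. The smallest called difference of the female-biased list was that of Cyp17a1, a steroid hydroxylase (1.41, adjusted p = 4.16e-14). Between wild and laboratory mice the median zFPKM difference was 3.67 for the female-biased and -1.11 for the male-biased list, against -0.0050 over all genes. Among all genes 7.28% were called higher and 7.17% lower there, and the shares for the other comparisons are given above. Ugt2b38, a glucuronosyltransferase, was the 1 male-biased gene called higher, against the direction of its list (0.44, adjusted p = 0.0284).

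For each of the 10 genes the most like pattern over the 6 mice was sought among all other tested genes, as the smallest root mean square difference of zFPKM after each gene was centred on its mean. Igf1 was most like S100a1 (0.0271), which had 348, 333 and 264 FPKM in the C57BL/6 livers and 141, 133 and 129 in wild mice. Ghr was most like Agt, the gene of angiotensinogen (0.0288), and Prlr most like Tiparp (0.0541). Igfals was nearest to Mrpl49 (0.0301), Igfbp1 to Rarb (0.0800), Igfbp2 to Gm8186 (0.0776) and Igfbp4 to Pdha1 (0.0179). Socs2 was nearest to Gm36391 (0.0592), Bcl6 to Spice1 (0.0318) and Cux2, least closely, to Ptgfr (0.166), which had at most 0.0391 FPKM in males and 1.06 and 1.20 in the females.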

How the data were processed

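Livers of 3 laboratory and 3 wild mice were analysed, 1 library each. The authors made stranded mRNA libraries, aligned reads with kalign and took FPKM from the Tuxedo tools, then transformed them with the R package zFPKM. The submitters' processing notes name GRCm38.p6 and Picard. The deposited FPKM account for transcript length and sequencing depth. The zFPKM deposited beside them is a score computed by the authors from log2 FPKM, with a mode and SD of each mouse's own. The strand setting of the counting is not given in the sources used here. No counts were used, so the edgeR test of the study was not repeated.

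Of 47256 gene names listed once in every mouse, 24 with a failed estimate were left out (failures are not marked for laboratory mouse 1). Genes with zFPKM above -3 in at least 3 mice were tested (18619), and anything lower was raised to -3. Tests used limma 3.58.1 in R 4.3.3 (lmFit, eBayes with trend, Benjamini-Hochberg adjustment over all tested genes). Wild and laboratory mice were compared in a fit of 2 groups, where the prior degrees of freedom were infinite (10.2 in the fit of 3 groups), and the wild male with the laboratory males and the wild females in a fit of 3 groups, in which the lone wild male is assumed to vary like the others. The numbers of the mice are in accession order and pair nothing. Summaries were made in Python 3.11.15 with pandas 2.3.3 and numpy 2.4.6. The procedure was run on simulated data with independent noise for each gene and mouse. These held no effect shared by the genes of a mouse, so that run does not test the calls made here. A two-sided exact permutation test of 3 mice against 3 cannot give p under 0.1 and was not used. In the fit of 2 groups the p-values set each difference against a spread shared by genes of like level. In the fit of 3 groups each gene's own spread between mice also counts.

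The 10 genes and the gene lists were chosen with earlier results of these data known. All 10 are named. Of each list, the called genes with the largest and smallest difference are named, plus Stat5b, Igfbp3, Cish and Onecut1. One gene that this rule names is not reported here. Sirpa, Pck1 and Fgf21, called in the smaller comparisons, were named after their values were seen. Files count starts from 0, so 1 was added, and the 10 positions then match RefSeq on GRCm38.p6. Exon overlaps come from GENCODE. Alternatives were other scales, filters, floors, variance models and scalings, sex as a covariate (identical to the wild male against the laboratory males, since all laboratory mice are male) and each mouse left out. Removal of a transcript length trend, equal medians of log2(FPKM + 0.1), and leaving out laboratory mouse 3 and wild mouse 1 together were chosen after seeing the data.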

Additional observations from a re-analysis of the deposited data

How the results depend on the processing

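Igf1, Prlr and Socs2 were the most stable of the calls between wild and laboratory mice, kept in 17, 16 and 16 of 19 alternatives, whereas Igfbp1 was kept in 8, Bcl6 in 9 and Cux2 in 7. Over the 10 genes, 134 of 190 values kept direction and side of the threshold, 40 lost and 4 gained the call and 12 changed sign. The files hold no counts, each group has 3 mice, and depth limits Cux2 in males. No paired analysis was possible because the labels give no replicate numbers that the groups share. The cause of the changes that follow was not tested.

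Between wild and laboratory mice, the 2690 genes called became 8242 on log2(FPKM + 1), 8589 on log2(FPKM + 0.1), 5270 with equal medians of zFPKM, 7282 after quantile normalization, 8817 with equal medians of log2(FPKM + 0.1), 23 without a filter, 795 without the variance trend, 1374 with sex as a covariate, 5676 without laboratory mouse 3 and wild mouse 1, and 1420 to 2556 with 1 mouse left out. The 6 of the 10 genes called became 3 with a floor of -5, 3 with sex as a covariate, 3 to 5 with 1 mouse left out (3 without laboratory mouse 3 and 3 without wild mouse 1), and 0 without a filter and 0 without the trend, where 3 had an unadjusted p under 0.05 in each.

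Between wild females and the wild male, the 70 genes called became 324 without a filter, 156 with the stricter filter, 12 without the trend, 344 with robust variances, 117 with the length trend removed, and 0 to 4944 with 1 mouse left out (4944 without laboratory mouse 3). The count of the 10 genes became 2 with the stricter filter, 3 with robust variances, 2 with the length trend removed, 0 to 4 with 1 mouse left out, and 0 without a filter, with a floor of -5 and without the trend (2, 4 and 2 at an unadjusted p under 0.05).

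Between the wild male and laboratory males, the 1374 genes became 5741 on log2(FPKM + 1), 6040 on log2(FPKM + 0.1), 4435 and 5279 with equal medians of zFPKM and of log2(FPKM + 0.1), 4239 after quantile normalization, 331 without a filter, 326 without the trend, 2186 with robust variances, and 0 to 8077 with 1 mouse left out (8077 without laboratory mouse 3, 0 without wild mouse 2 or 3, when 3126 and 3144 had an unadjusted p under 0.05). The 3 of the 10 genes became 5 on both log2 scales and after quantile normalization, 0 to 7 with 1 mouse left out, and 0 without a filter or without the trend (3 at an unadjusted p under 0.05 in each). On log2(FPKM + 0.1) 5025 genes were called higher and 1015 lower, against 249 and 1125 in zFPKM.

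Differences that changed sign follow. For wild minus laboratory mice, Igfbp2 was -0.29 without laboratory mouse 3 and wild mouse 1 (adjusted p = 0.0357), and -0.17 to 0.19 with 1 mouse left out (-0.07 without laboratory mouse 3, -0.17 without wild mouse 1). Igfals was 0.41 on log2(FPKM + 1), 0.42 on log2(FPKM + 0.1) and -0.28 to 0.0218 with 1 mouse left out (above 0 without laboratory mouse 2). Ghr was 0.66 and 0.67 on those scales, and -0.0925 to 0.0448 with 1 mouse left out (above 0 without laboratory mouse 1, laboratory mouse 2 or wild mouse 1). Cux2 was -0.48 with sex as a covariate. For wild females minus the wild male, on log2(FPKM + 1), log2(FPKM + 0.1), equal medians of zFPKM, quantile normalization and equal medians of log2(FPKM + 0.1), Igf1 was -0.17, -0.17, -0.33, -0.0577 and -0.39, Igfbp1 was -0.0597, -0.0681, -0.33, -0.0244 and -0.29, and Igfals was -0.0633, -0.0644, -0.30, -0.0190 and -0.28. Igfbp1 was -0.31 without wild mouse 2 and up to 0.58 without another mouse. With equal medians Igfbp4 was -0.31 in zFPKM, and Ghr -0.27 in zFPKM and -0.0254 in log2(FPKM + 0.1). For the wild male minus laboratory males, Igfbp4 was -0.0403 without laboratory mouse 3 and up to 0.0920 without another. On log2(FPKM + 1), log2(FPKM + 0.1) and equal medians of zFPKM, Igfals was 0.45, 0.46 and 0.0736 and Ghr 0.54, 0.54 and 0.13. Cux2 was 0.0209, 0.14 and 0.23 on log2(FPKM + 1), log2(FPKM + 0.1) and after quantile normalization.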
